A study of Mus musculus with 6 samples.

Results

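The enzymes of glucose breakdown were followed in mouse bone marrow stromal cells that had taken up apoptotic thymocytes. The 58 genes were chosen by symbol, and each matched 1 of the 53735 features of the count table. They comprise 22 genes of glucose uptake, glycolysis and lactate handling, 10 of the entry of pyruvate into the mitochondrion, 14 listed with the tricarboxylic acid (TCA) cycle, 5 of malate, glutamate and aspartate exchange with it, and 7 of the pentose phosphate pathway. RNA sequencing covered 3 control and 3 fed libraries. All 6 came from wild-type marrow stromal cells, sorted as CD51+ and free of CD45, CD31 and lineage markers, and expanded under 2% oxygen to passage 2 or 3. Fed wells received 5000000 dye-labelled apoptotic thymocytes for 24 h at 5% oxygen and their dye-positive cells were sorted. Control wells received none, and the labels state neither their oxygen over those 24 h nor a change of their medium. Feeding, oxygen, medium and the sort on dye can therefore not be told apart. The labels give no strain, sex or age. Nor do they tie a group's libraries to different cultures or mice, so the p-values here reflect the spread of these libraries alone, which may be technical.

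Glycolysis splits glucose in the cytosol into pyruvate, which cells either reduce to lactate or pass to the mitochondrion. There the pyruvate dehydrogenase complex turns it into acetyl-CoA, which the TCA cycle oxidises. The pentose phosphate pathway branches off after hexokinase and supplies NADPH and ribose phosphate for nucleotides. Many glycolytic genes, and the pyruvate dehydrogenase kinase gene Pdk1, are known targets of hypoxia-inducible factor 1 (HIF-1), which binds the core letters ACGTG or GCGTG. Only ACGTG was counted here. Cultured marrow stromal cells at low oxygen are known to rely on glycolysis.

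Library totals ran from 19069074 to 21949519 counts in the control group and from 20034583 to 22410047 in the fed group. The 58 genes took 2.01% to 2.14% of them in control and 1.87% to 1.97% in fed libraries. Levels are given as CPM, each gene's counts scaled to a common TMM-adjusted library size, and each gene's lowest library held at least 50 counts. A gene is said to have risen or fallen where edgeR's quasi-likelihood test gave an adjusted p under 0.05 over all 13092 genes tested. Stromal markers were high in all libraries, with Col1a1 at 19408 ± 263 CPM in control and Pdgfrb at 780.3 ± 16.8 (SD, n = 3). Of 8 stromal markers 6 fell and none rose, where 19.0% of all genes tested were called lower and 20.5% higher. The summed level of the 8 was 24312 to 25227 CPM in control and 21340.2 to 22773 in fed libraries. The 14 thymocyte markers summed to 0.417 to 0.895 CPM in control and 0.736 to 1.64 CPM in fed libraries, with Cd3g, Rag2, Ptcra and Cd2 at 0 in all 6. Cd8a, Cd8b1 and Dntt were at 0 in each control library and present in each fed library, at means of 0.0759, 0.110 and 0.142 CPM. Rag1 was at 0.0490 CPM in control and 0.384 in fed libraries and Ptprc at 0.0157 and 0.157, without overlap. Lck, which made up most of the control sum, was at 0.560 and 0.353 CPM, with overlap, and Themis was higher in control (0.0487 and 0.0147 CPM). The 8 macrophage markers summed to 6.94 to 7.53 and 7.50 to 7.88 CPM, with Fcgr1 at 0 in all 6. Most of that sum was Csf1r (5.78 and 5.40 CPM, overlapping), while Adgre1 and C1qa were at 0 in each control library and at means of 0.173 and 0.280 CPM in fed libraries, present in each. The 6 endothelial markers summed to 2.83 to 3.49 and 2.67 to 3.30 CPM, with Cdh5, Tie1 and Emcn at 0. The part of these markers in the results below was not tested, and in bulk libraries fewer cells of a type and less RNA per cell cannot be told apart.

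All 58 genes passed the filter on low counts. In fed cells 21 of them fell and 16 rose, where 39.5% of all genes tested were called, 20.5% higher and 19.0% lower. Among the listed genes the directions differed between the pathways. Of the 22 glycolysis genes 15 fell and none rose, with a median log2 fold change (fed minus control) of -0.19. Of the 14 TCA genes 8 rose and 1 fell (median 0.14), and all 5 genes of the malate, glutamate and aspartate group rose (median 0.18). Of the 7 pentose phosphate genes 2 rose and 1 fell (median 0.07), and of the 10 genes at the pyruvate entry 1 rose and 4 fell (median -0.04). The median over all genes tested was -0.0066. The counts are a description of the listed genes, and no test compared the pathways as sets. The glycolysis counts do not extend to 18 further tested genes around that pathway, of which 9 rose and 2 fell.

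The changes were small. None of the 37 members that passed changed by 1.5-fold or more, against 694 of the 5175 genes called in all. Their median absolute log2 fold change was 0.200, against 0.281 over all called genes. The most negative value belonged to Idh1 (-0.57) and the highest to Idh3a (0.52). The groups of libraries did not overlap for 23 members with fed below control and 17 with fed above control, where 24.0% and 25.1% of all genes tested were so separated.

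**Figure D1:**
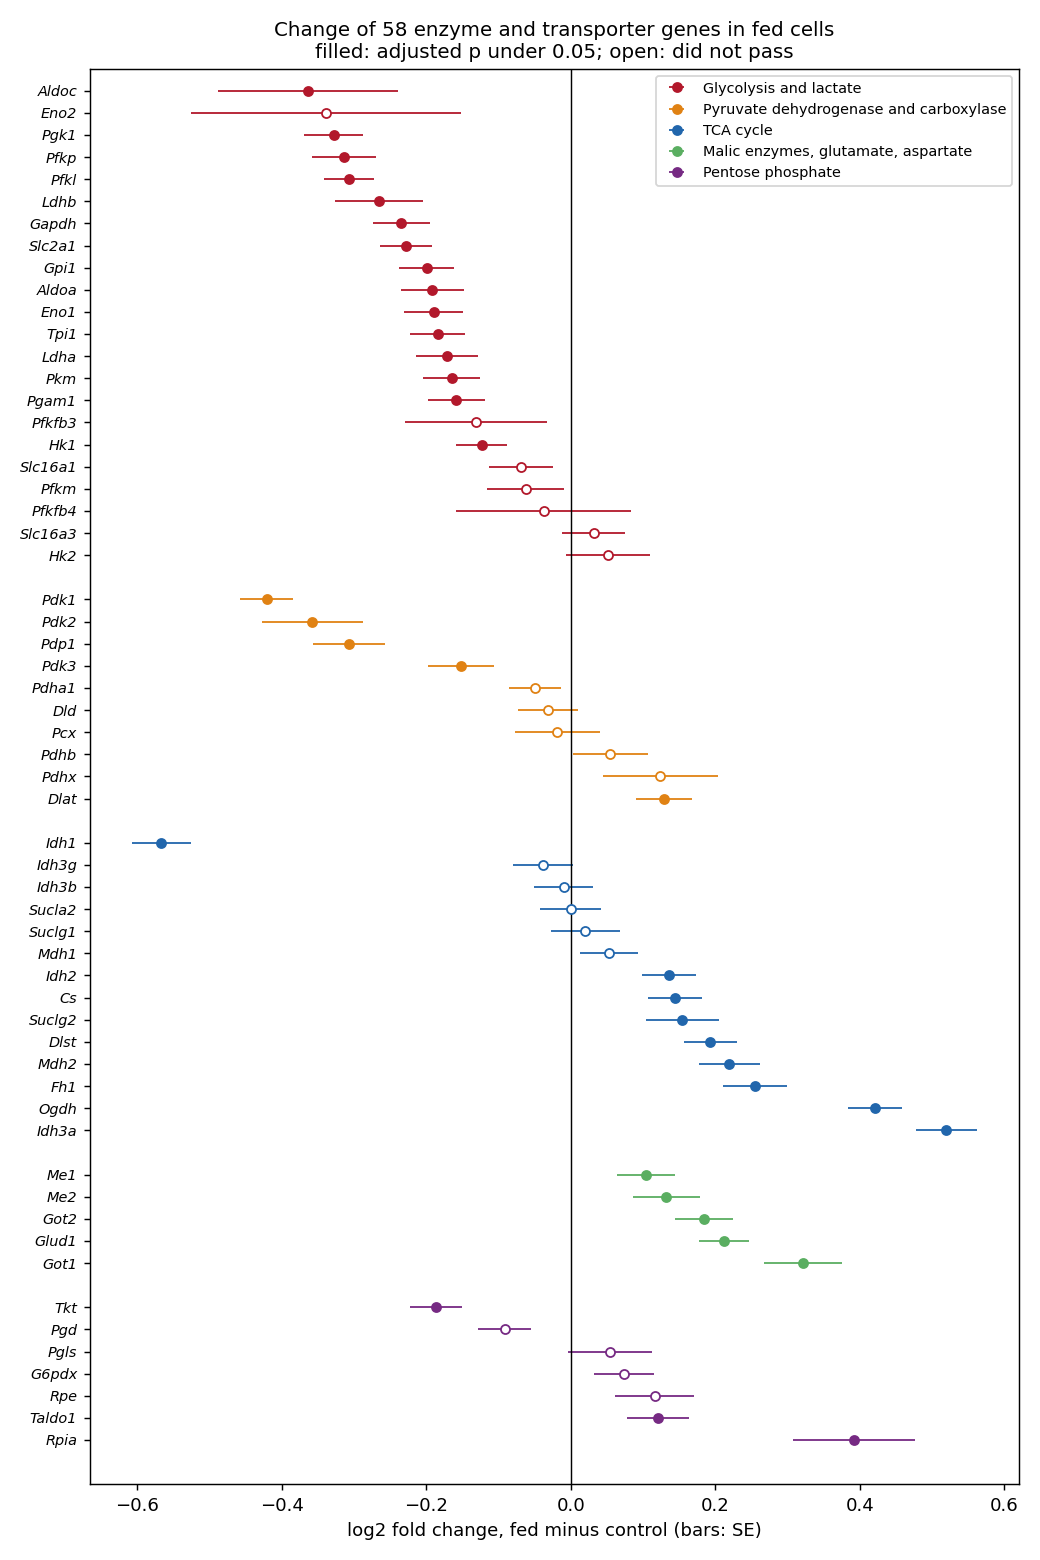
The log2 fold change, fed minus control, of each of the 58 genes with its standard error (horizontal bars, from the fit over all 6 libraries), grouped by pathway. Filled points passed an adjusted p under 0.05; the 15 filled glycolysis points all lie left of 0, and the filled TCA points lie right of 0 except Idh1 at -0.57.

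In each fed library the pathway medians had these directions, from the same data as the fold changes above. Each gene's log2 level was set against its control mean, which centres the control libraries by design, and the median taken over the pathway. For glycolysis this gave -0.02, 0.0046 and 0.01 in the control libraries and -0.24, -0.16 and -0.17 in the fed libraries. For the TCA cycle it gave -0.04, 0.02 and 0.03 in control and 0.11, 0.14 and 0.13 in fed libraries. Glycolysis was thus low and the TCA cycle high in each of the 3 fed libraries, with no overlap with control in either case. The pentose phosphate medians were -0.03, 0.02 and 0.03 in control and 0.07, 0.06 and 0.09 in fed libraries, also without overlap but closer together. In summed level the glycolysis genes were at 16785 ± 448 CPM in control and 14742 ± 467 CPM in fed libraries (SD, n = 3), and the TCA genes at 1857 ± 51.9 and 2046 ± 26.9 CPM. The pentose phosphate sum, unlike its median, had the lower mean in fed libraries, at 911 ± 23.4 CPM in control and 880.0 ± 7.49 CPM in fed libraries, with groups that overlapped.

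**Figure D2:**
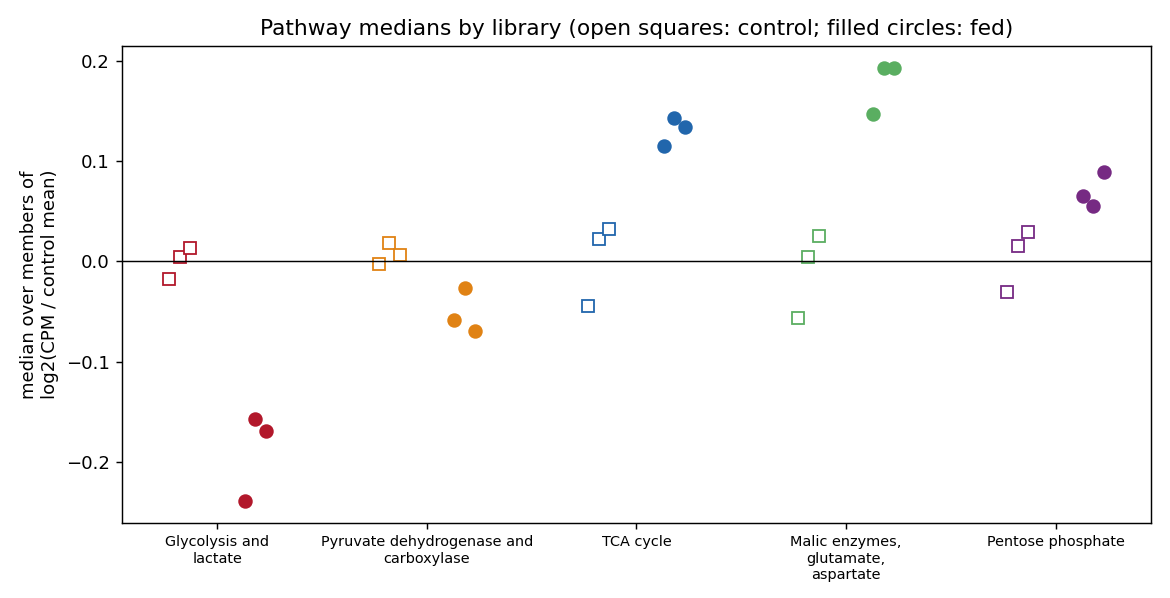
For each pathway (x axis) and library, the median over its genes of log2(CPM / control mean) (y axis). Open squares are the 3 control libraries and filled circles the 3 fed libraries; the fed circles lie below the squares for glycolysis and above them for the TCA cycle.

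The promoters of the 3 glycolysis genes with the smallest adjusted p, Pfkl, Pgk1 and Pfkp, are shown because they stand for the group that fell together. Ldha, chosen after its motif count was seen, is added as the one with the most copies of ACGTG. Each is 250 bases before to 50 bases after an annotated start on GRCm38.p6, from RefSeq, read 5′ to 3′ on the gene's own strand, with ACGTG on either strand in capitals. Pgk1 lies at chrX:106186850-106187149, plus strand, Ldha at chr7:46845554-46845853, plus strand, Pfkl at chr10:78009758-78010057, minus strand and Pfkp at chr13:6648722-6649021, minus strand.
Pgk1: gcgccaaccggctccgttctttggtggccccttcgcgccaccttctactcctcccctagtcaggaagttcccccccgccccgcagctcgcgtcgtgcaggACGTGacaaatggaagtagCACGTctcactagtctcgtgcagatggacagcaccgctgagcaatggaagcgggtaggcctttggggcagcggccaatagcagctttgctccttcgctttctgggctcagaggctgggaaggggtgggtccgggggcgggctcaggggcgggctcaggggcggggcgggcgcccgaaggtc
Ldha: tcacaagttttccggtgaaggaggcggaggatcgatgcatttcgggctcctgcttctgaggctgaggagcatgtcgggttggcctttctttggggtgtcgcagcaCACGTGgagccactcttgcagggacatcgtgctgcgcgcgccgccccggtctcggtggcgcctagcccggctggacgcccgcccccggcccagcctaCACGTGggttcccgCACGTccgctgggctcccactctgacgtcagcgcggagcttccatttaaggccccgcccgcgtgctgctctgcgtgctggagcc
Pfkl: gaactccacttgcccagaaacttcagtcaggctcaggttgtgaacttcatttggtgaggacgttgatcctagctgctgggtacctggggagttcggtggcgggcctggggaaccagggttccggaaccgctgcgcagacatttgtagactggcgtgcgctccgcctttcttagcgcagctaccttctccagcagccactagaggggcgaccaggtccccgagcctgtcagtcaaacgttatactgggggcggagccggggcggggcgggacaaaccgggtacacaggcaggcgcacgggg
Pfkp: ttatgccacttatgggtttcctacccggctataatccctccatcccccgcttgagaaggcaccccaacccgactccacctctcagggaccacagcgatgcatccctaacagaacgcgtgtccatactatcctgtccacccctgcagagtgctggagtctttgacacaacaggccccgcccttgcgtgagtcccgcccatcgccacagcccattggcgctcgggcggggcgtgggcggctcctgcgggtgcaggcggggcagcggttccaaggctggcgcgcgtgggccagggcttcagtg

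Pgk1 held 2 copies of ACGTG, Ldha 5 and the windows of Pfkl and Pfkp none, so ACGTG was not shared by the genes that lead the group. The other form of the HIF-1 core, GCGTG, was not counted, and the windows of Pfkl and Pfkp both hold it. A palindromic CACGTG, the E-box, contains ACGTG on each strand and is counted on each, and the Ldha window holds 2 such sites. Promoters were matched for 55 of the 58 genes, all but Pdp1, Idh3a and Me2, and some genes have several starts. ACGTG was found at 14 of 22 glycolysis genes (63.6%), 3 of 13 TCA genes (23.1%) and 1 of 7 pentose phosphate genes (14.3%). Over all genes of the promoter table the share was 21.8%, and over the tested genes 29.5%. Among glycolysis genes ACGTG did not separate those that fell (9 of 15) from those that did not pass (5 of 7). CACGTG was found at 4 of 22 glycolysis genes, against 11.9% of the tested genes. It was at 1 of the 15 that fell and 3 of the 7 that did not pass. The antioxidant response element TGACNNNGC was found at 2 of 7 pentose phosphate genes (G6pdx and Pgd) and 4 of 13 TCA genes, against 17.1% of the tested genes. These matches describe the windows and are not binding sites.

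Glucose enters through the transporter Slc2a1, at 189.9, 197 and 195 CPM in the control libraries and 163, 168 and 166 CPM in the fed libraries (log2 fold change -0.23 ± 0.036, adjusted p = 3.97e-05). The fed libraries were the 3 lowest. Hexokinase traps glucose as glucose 6-phosphate, and its ubiquitous form Hk1 was at 259.5, 269 and 259.8 CPM in control and 243, 244 and 237 CPM in fed libraries (log2 fold change -0.12 ± 0.036, adjusted p = 0.00894). This fall was lost without control replicate 2 (adjusted p = 0.0684) and with library totals only (0.0527). The inducible form Hk2 was at 71.5, 64.5 and 61.4 CPM in control and 69.4, 72.1 and 63.3 CPM in fed libraries, with groups that overlapped (log2 fold change 0.05 ± 0.058, adjusted p = 0.519). Gpi1, which converts glucose 6-phosphate to fructose 6-phosphate, was at 801, 842 and 837 CPM in control and 702, 722 and 736 CPM in fed libraries, lower in each fed library (log2 fold change -0.20 ± 0.037, adjusted p = 0.000243).

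Phosphofructokinase commits sugar to glycolysis, and its liver and platelet forms fell. Pfkl (chromosome 10, 77986947 to 78010083) was at 547, 549 and 550.4 CPM in the control libraries and 443, 437 and 451 CPM in the fed libraries. The spread within a group was at most 6.78 CPM (SD, n = 3) against a change of -19.2% (log2 fold change -0.31 ± 0.035, adjusted p = 6.51e-07). Pfkp was at 86.7, 84.5 and 88.1 CPM in control and 65.0, 72.4 and 71.1 CPM in fed libraries (log2 fold change -0.31 ± 0.045, adjusted p = 1.12e-05). The muscle form Pfkm was at 55.3, 50.1 and 47.2 CPM in control and 50.0, 48.1 and 48.2 CPM in fed libraries, groups that overlapped (log2 fold change -0.06 ± 0.054, adjusted p = 0.38). Pfkfb3 and Pfkfb4 make fructose 2,6-bisphosphate, the activator of phosphofructokinase. Pfkfb3 had 100.2, 82.1 and 81.8 CPM in control and 86.7, 80.2 and 74.6 CPM in fed libraries, with control replicate 1 the highest and the groups overlapping (log2 fold change -0.13 ± 0.098, adjusted p = 0.347). Pfkfb4 was low, at 6.21, 5.90 and 5.21 CPM in control and 6.34, 5.52 and 5.11 CPM in fed libraries (log2 fold change -0.04 ± 0.12, adjusted p = 0.833), again with overlap.

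Of the enzymes that follow, from aldolase to pyruvate kinase, each listed gene fell except Eno2. Pgk1 (chromosome X, 106187100 to 106203699), which makes the first ATP of the pathway, was at 666, 682 and 692 CPM in the control libraries and 515, 536 and 574 CPM in the fed libraries (log2 fold change -0.33 ± 0.041, adjusted p = 2.18e-06). Fed replicate 3 was the highest fed library and still lay below each control library. Gapdh, which makes NADH and is widely used as a reference gene, was at 1925, 2011 and 2026 CPM in control and 1628, 1739 and 1700.3 CPM in fed libraries (log2 fold change -0.23 ± 0.040, adjusted p = 8.24e-05), again with no overlap. Pkm, pyruvate kinase, was at 2787, 2948 and 2935 CPM in control and 2528, 2602 and 2605 CPM in fed libraries (log2 fold change -0.16 ± 0.039, adjusted p = 0.00208). In the same span Aldoa, Tpi1, Eno1 and Pgam1, which are aldolase, triose phosphate isomerase, enolase and phosphoglycerate mutase, fell by 0.19, 0.18, 0.19 and 0.16 on the log2 scale (adjusted p from 0.000611 to 0.00294). The brain-type forms were scarce. Aldoc was at 6.76, 5.29 and 5.79 CPM in control and 4.76, 4.41 and 4.71 CPM in fed libraries (log2 fold change -0.36 ± 0.12, adjusted p = 0.0246), a fall that DESeq2 did not call (0.0968) and that ended when control replicate 1 (0.154), fed replicate 2 (0.0911) or fed replicate 3 (0.0546) was left out. Eno2 was at 3.43, 2.50 and 4.53 CPM in control and 2.48, 2.94 and 2.77 CPM in fed libraries (log2 fold change -0.34 ± 0.19, adjusted p = 0.164), and passed only without control replicate 2 (adjusted p = 0.0284).

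Both listed lactate dehydrogenase genes fell, and neither listed lactate carrier passed the test. Ldha, whose enzyme favours the step from pyruvate to lactate, was at 2674, 2801 and 2911 CPM in control and 2377, 2579 and 2491 CPM in fed libraries (log2 fold change -0.17 ± 0.043, adjusted p = 0.0032). Ldhb, whose enzyme favours the reverse, was at 33.6, 32.1 and 29.2 CPM in control and 25.5, 26.7 and 26.9 CPM in fed libraries (log2 fold change -0.27 ± 0.061, adjusted p = 0.0016). Both had each fed library below each control library. Slc16a3, the monocarboxylate carrier MCT4 that exports lactate, was at 483, 511 and 528 CPM in the control libraries and 486, 541 and 529 CPM in the fed libraries, groups that overlapped (log2 fold change 0.03 ± 0.044, adjusted p = 0.597). Slc16a1, the carrier MCT1, had 56.2, 53.7 and 55.3 CPM in control and 52.5, 53.6 and 51.4 CPM in fed libraries (log2 fold change -0.07 ± 0.044, adjusted p = 0.237), not called although the groups did not overlap. A further monocarboxylate carrier gene outside the list, Slc16a7, was scarcer and rose. It went from 5.94 ± 0.349 CPM in control to 8.28 ± 0.645 CPM in fed libraries (log2 fold change 0.48 ± 0.11, adjusted p = 0.00109).

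HIF-1 target genes outside the enzyme list moved with the glycolysis genes. Of 16 such genes 14 fell and none rose, where 19.0% of all genes tested were called lower and 20.5% higher. The counts were the same under each alternative run, and the list was chosen with earlier results of these data known. The summed level of the 16 genes was 2633 to 2717 CPM in control and 2048 to 2126 CPM in fed libraries. Their median log2 fold change was -0.34, against -0.19 for glycolysis. Among these genes, Bnip3, a mitophagy receptor, fell by 0.63 on the log2 scale and Egln1, an oxygen-sensing hydroxylase, by 0.34. The part of oxygen in the glycolysis result was not tested.

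**Figure D3:**
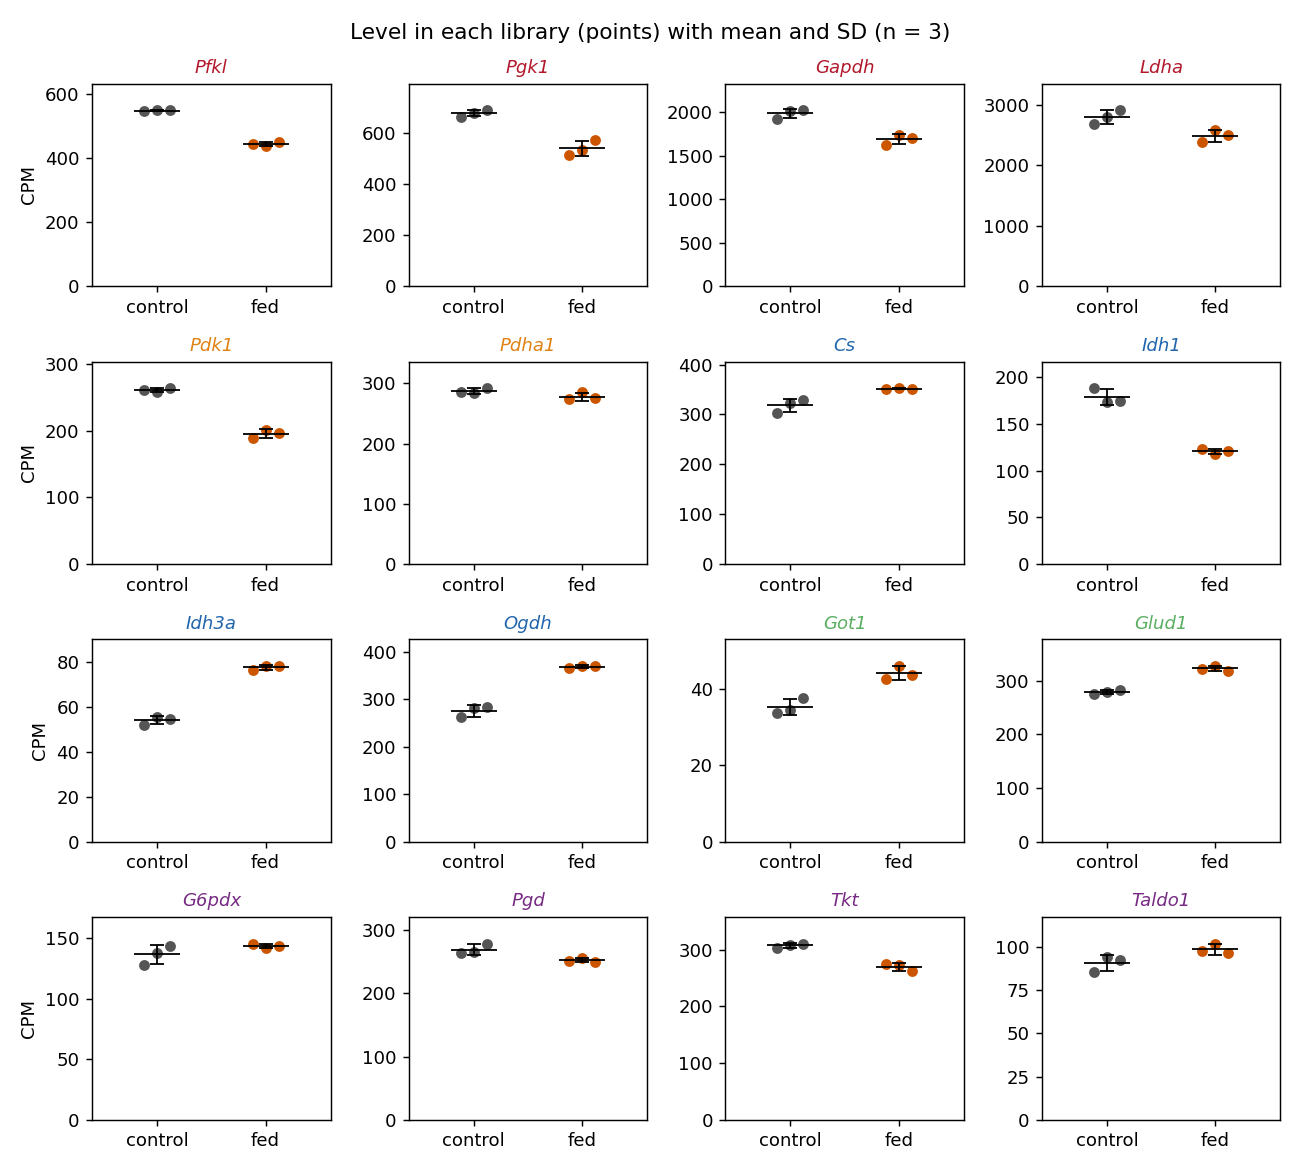
CPM (y axes, from 0) of 16 genes in the 3 control and the 3 fed libraries (points), with the mean and SD of each group (n = 3); titles are coloured by pathway. The groups lie apart for genes such as Pfkl, Pdk1, Idh1, Idh3a and Ogdh and overlap for Pdha1 and G6pdx.

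The gate from pyruvate to acetyl-CoA is set by kinases that switch the pyruvate dehydrogenase complex off and phosphatases that switch it on. Pdk1 (chromosome 2, 71873224 to 71903858), the kinase known as a HIF-1 target, was at 262, 259 and 265 CPM in the control libraries and 189, 202 and 196 CPM in the fed libraries (log2 fold change -0.42 ± 0.037, adjusted p = 2.18e-08). It ranked 187 by p among the 13092 genes tested. Pdk2 was at 33.5, 36.0 and 34.6 CPM in control and 26.8, 24.1 and 30.3 CPM in fed libraries (log2 fold change -0.36 ± 0.070, adjusted p = 0.000502). Pdk3 was at 86.7, 95.0 and 92.0 CPM in control and 77.4, 83.1 and 85.5 CPM in fed libraries (log2 fold change -0.15 ± 0.046, adjusted p = 0.0114), a fall lost without control replicate 2 (0.0865) or fed replicate 1 (0.065). Pdp1, the opposing phosphatase, was at 46.4, 46.6 and 43.1 CPM in control and 36.6, 36.3 and 37.2 CPM in fed libraries (log2 fold change -0.31 ± 0.050, adjusted p = 5.61e-05). The 3 listed kinases and the phosphatase all fell, with no overlap in any of the 4.

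Of the subunits of the complex itself only Dlat passed the test. Pdha1, the E1 subunit that the kinases phosphorylate, was at 286, 284 and 293 CPM in control and 273, 285 and 275 CPM in fed libraries (log2 fold change -0.05 ± 0.036, adjusted p = 0.289), and its partner Pdhb at 37.0, 35.2 and 35.2 CPM in control and 35.9, 38.3 and 37.4 CPM in fed libraries (log2 fold change 0.05 ± 0.052, adjusted p = 0.427). Dlat, the E2 core, was at 78.2, 77.3 and 75.2 CPM in control and 84.1, 83.4 and 84.8 CPM in fed libraries, higher in each fed library (log2 fold change 0.13 ± 0.039, adjusted p = 0.012). The E3 enzyme Dld, which other complexes share, and the E3-binding protein Pdhx had log2 fold changes of -0.03 ± 0.041 (adjusted p = 0.571) and 0.12 ± 0.080 (adjusted p = 0.234). Pcx, which carboxylates pyruvate to oxaloacetate, was at 26.7, 28.0 and 27.8 CPM in control and 28.6, 26.7 and 26.1 CPM in fed libraries (log2 fold change -0.02 ± 0.059, adjusted p = 0.825). The log2 ratio of Pdk1 to Pdha1 was -0.13, -0.13 and -0.14 in control and -0.53, -0.50 and -0.49 in fed libraries, a difference of -0.37.

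In the TCA cycle, the catalytic subunits at the isocitrate and oxoglutarate steps had the highest log2 fold changes. Idh3a (chromosome 9, 54586334 to 54604661), the catalytic subunit of the NAD-dependent isocitrate dehydrogenase, was at 52.1, 55.6 and 54.6 CPM in the control libraries and 76.2, 78.3 and 78.1 CPM in the fed libraries (log2 fold change 0.52 ± 0.042, adjusted p = 9.98e-09). Its partners Idh3b, at 64.4, 65.7 and 63.8 CPM in control and 63.2, 64.5 and 64.8 CPM in fed libraries (log2 fold change -0.01 ± 0.041, adjusted p = 0.868), and Idh3g, with log2 fold change -0.04 ± 0.042, adjusted p = 0.493, did not pass. The Idh3a to Idh3b log2 ratio was -0.31, -0.24 and -0.22 in control and 0.27, 0.28 and 0.27 in fed libraries, without overlap. The difference of 0.53 had an exact two-sided permutation p of 0.1, the smallest that 3 against 3 libraries allow, and 0.133 when adjusted over the 16 pairs compared. Of those 16 pairs, chosen after the values were seen, 12 had groups that did not overlap, and the same limit holds for each.

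Ogdh (chromosome 11, 6291633 to 6356642), the first enzyme of the oxoglutarate dehydrogenase complex, was at 262, 281 and 284 CPM in the control libraries and 366, 369.9 and 371 CPM in the fed libraries (log2 fold change 0.42 ± 0.038, adjusted p = 3.11e-08). The fed libraries lay close together and above control, a fitted change of 33.9%. Dlst, its E2 core, was at 176, 185 and 183 CPM in control and 202, 209 and 209.9 CPM in fed libraries (log2 fold change 0.19 ± 0.037, adjusted p = 0.000286), and the Ogdh to Dlst log2 ratio was higher in fed libraries by 0.23, without overlap. The shared E3 gene Dld is given above. Fh1, fumarase, was at 67.0, 70.1 and 73.0 CPM in control and 79.8, 83.6 and 87.0 CPM in fed libraries (log2 fold change 0.25 ± 0.045, adjusted p = 0.000119). Mdh2, the mitochondrial malate dehydrogenase, was at 211, 232 and 237 CPM in control and 256, 271 and 265 CPM in fed libraries (log2 fold change 0.22 ± 0.042, adjusted p = 0.000338). Both had each fed library above each control library.

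Cs, citrate synthase, which opens the cycle, was at 304, 323 and 328 CPM in control and 351, 353 and 351 CPM in fed libraries, a smaller rise (log2 fold change 0.14 ± 0.037, adjusted p = 0.00403). Idh2, the mitochondrial NADP-dependent isocitrate dehydrogenase, was at 119, 124 and 126 CPM in control and 133, 135 and 137 CPM in fed libraries (log2 fold change 0.14 ± 0.037, adjusted p = 0.00659). At the succinyl-CoA step, the GTP-forming subunit Suclg2 rose by 0.15 on the log2 scale (adjusted p = 0.0196). DESeq2 did not make that call (0.0748), and it ended when control replicate 1 (0.0721), control replicate 2 (0.067) or fed replicate 2 (0.115) was left out. Its ATP-forming counterpart Sucla2 and the shared subunit Suclg1 had log2 fold changes of 1.9e-05 ± 0.042 and 0.02 ± 0.048 (adjusted p = 0.765), with groups that overlapped.

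The exception was Idh1 (chromosome 1, 65158616 to 65186500), listed with the cycle but encoding the NADP-dependent isocitrate dehydrogenase of the cytosol and peroxisome. It was at 188, 173 and 174 CPM in the control libraries and 123, 118 and 121 CPM in the fed libraries (log2 fold change -0.57 ± 0.041, adjusted p = 1.77e-09), ranked 67 by p among all genes tested. Each fed library lay below each control library, a fitted change of -32.5%. Set beside Idh2, its log2 ratio was 0.66, 0.48 and 0.47 in control and -0.12, -0.20 and -0.18 in fed libraries. The difference, -0.70, had the most negative value of the 16 pairs.

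Enzymes that occur in a cytosolic and a mitochondrial form did not share a pattern. For malate dehydrogenase the cytosolic Mdh1 had 129, 135 and 135 CPM in control and 132, 141 and 141 CPM in fed libraries, overlapping (log2 fold change 0.05 ± 0.040, adjusted p = 0.308), while Mdh2 rose. The Mdh1 to Mdh2 log2 ratio differed by -0.17, without overlap. For aspartate aminotransferase, which works with malate dehydrogenase in the malate-aspartate shuttle, both forms rose. Got1, of the cytosol, was at 33.7, 34.4 and 37.6 CPM in control and 42.5, 45.9 and 43.5 CPM in fed libraries (log2 fold change 0.32 ± 0.054, adjusted p = 8.12e-05). Got2, of the mitochondrion, was at 118, 124 and 129 CPM in control and 137, 141 and 143 CPM in fed libraries (log2 fold change 0.18 ± 0.040, adjusted p = 0.00103). Malic enzyme makes pyruvate and reducing power from malate, and its cytosolic form Me1 was at 101, 103 and 105 CPM in control and 109, 115 and 107 CPM in fed libraries (log2 fold change 0.10 ± 0.040, adjusted p = 0.0428). The mitochondrial form Me2 was at 50.8, 54.7 and 53.0 CPM in control and 55.8, 59.6 and 58.3 CPM in fed libraries (log2 fold change 0.13 ± 0.046, adjusted p = 0.0281). Their log2 ratio had groups that overlapped (difference -0.03).

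Neither Me1 nor Me2 kept its call throughout. Me1 did not pass by DESeq2 (0.112). Leaving out control replicate 1 gave 0.122, control replicate 2 0.11, fed replicate 1 0.0526 and fed replicate 2 0.22 as the adjusted p. Me2 did not pass by DESeq2 either (0.0942), and its adjusted p was 0.126 when control replicate 1, 0.118 when fed replicate 2 and 0.0716 when fed replicate 3 was left out. Of the 5 genes in this group, 3 were left without control replicate 1 or fed replicate 2. Glud1, which turns glutamate into oxoglutarate, was at 274, 279.8 and 283 CPM in the control libraries and 323, 328 and 319 CPM in the fed libraries (log2 fold change 0.21 ± 0.035, adjusted p = 6.39e-05). It was higher in each fed library and kept its call under each alternative run, as did Got1 and Got2.

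In the pentose phosphate pathway the oxidative, NADPH-forming enzymes did not pass. G6pdx, the first and rate-limiting enzyme, was at 128, 138 and 144 CPM in the control libraries and 145, 142 and 144 CPM in the fed libraries, groups that overlapped (log2 fold change 0.07 ± 0.042, adjusted p = 0.174), and passed only without control replicate 3 (adjusted p = 0.0462). Pgls, the lactonase, did not pass either (log2 fold change 0.05 ± 0.059, adjusted p = 0.494). Pgd, the second NADPH-forming enzyme, was at 264, 266 and 279 CPM in control and 252, 257 and 250.2 CPM in fed libraries. Its groups did not overlap and its adjusted p of 0.0505 lay at the threshold (-0.09 ± 0.036 on the log2 scale). It was called lower without control replicate 1 (0.0369).

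The non-oxidative enzymes, which interconvert sugar phosphates, went in different directions. Tkt, transketolase, was at 303, 308 and 310.5 CPM in the control libraries and 275, 273 and 262 CPM in the fed libraries, lower in each fed library (log2 fold change -0.19 ± 0.036, adjusted p = 0.000301). Taldo1, transaldolase, was at 85.6, 94.0 and 92.4 CPM in control and 97.4, 102 and 96.4 CPM in fed libraries (log2 fold change 0.12 ± 0.043, adjusted p = 0.0299), a rise that DESeq2 did not call (0.0824) and that ended when control replicate 1 (0.171) or fed replicate 2 (0.145) was left out. Only 1 of the 7 pentose phosphate genes was then called higher. The Tkt to Taldo1 log2 ratio differed by -0.31, without overlap. Rpia, which makes ribose 5-phosphate, was scarce and higher in fed cells, at 11.8, 10.2 and 9.74 CPM in control and 14.7, 13.6 and 13.6 CPM in fed libraries (log2 fold change 0.39 ± 0.085, adjusted p = 0.00093). Rpia shares a stretch of sequence with other genes of higher summed count (given below), so its value is uncertain. Rpe, its neighbour in the pathway, was at 30.0, 30.8 and 29.3 CPM in control and 31.4, 33.7 and 32.6 CPM in fed libraries (log2 fold change 0.12 ± 0.054, adjusted p = 0.0977).

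Enzymes that supply NADPH differed in direction. Idh1 fell, Me1 and Idh2 rose, and G6pdx and Pgd did not pass. H6pd, the form of glucose 6-phosphate dehydrogenase in the endoplasmic reticulum, fell by 0.14 on the log2 scale (adjusted p = 0.00468).

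Relative to exon length, glycolysis genes were both the most and the least abundant of the set. The unit here is CPM per kb of merged exons. Ldha was at 844 ± 35.9 in control and 750.0 ± 30.7 in fed cells, Aldoa at 802 ± 33.7 and 702 ± 34.8, and Pkm at 578 ± 17.9 and 516 ± 8.75 (SD, n = 3). The 11 highest of the 58 in control were all glycolysis genes, from Ldha down to Pfkl at 82.2 ± 0.267. Ldha and Aldoa, next to each other in that order, lay close together, with Ldha the higher within each library. The 3 lowest were also glycolysis genes, with Aldoc at 1.82 ± 0.230, Pfkfb4 at 1.18 ± 0.104 and Eno2 at 0.741 ± 0.216. The most abundant gene outside glycolysis was Pdha1 at 77.0 ± 1.18. In the TCA group Mdh2 and Cs were at 63.6 ± 3.83 and 55.0 ± 2.22, and Idh3a at 10.7 ± 0.361. G6pdx, Pgd, Tkt and Taldo1 lay between 41.8 and 44.4, and Rpia at 1.98 ± 0.202.

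On the same per-length scale the make-up of some enzyme families shifted. Pfkl made up 79.1% ± 0.971 of the phosphofructokinase level in control and 77.0% ± 0.305 in fed cells, and Pfkm 14.7% ± 1.05 and 16.9% ± 0.408, both without overlap. Of the pyruvate dehydrogenase kinases, Pdk1 went from 37.8% ± 0.886 to 32.6% ± 0.846 and Pdk4 from 9.96% ± 1.10 to 14.8% ± 1.20. Idh1 supplied 57.5% ± 1.80 of the NADP-dependent isocitrate dehydrogenase level in control and 45.4% ± 0.739 in fed cells. In the summed level of the subunit genes of the NAD-dependent enzyme, the Idh3a share went from 19.0% ± 0.362 to 25.6% ± 0.0611. Idh3b and Idh3g, the other subunit genes, did not pass the test themselves. Ldha, by contrast, held 97.7% ± 0.256 and 97.8% ± 0.0475 of lactate dehydrogenase, with groups that overlapped. These shares and the ranking above depend on merged exon lengths over all annotated transcripts, which were 13401 bases for Pfkp and 3340 for Pfkm. In control Pfkp had more CPM than Pfkm (86.5 and 50.9) but a smaller share (6.21% and 14.7%). The shares are descriptions.

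**Figure D4:**
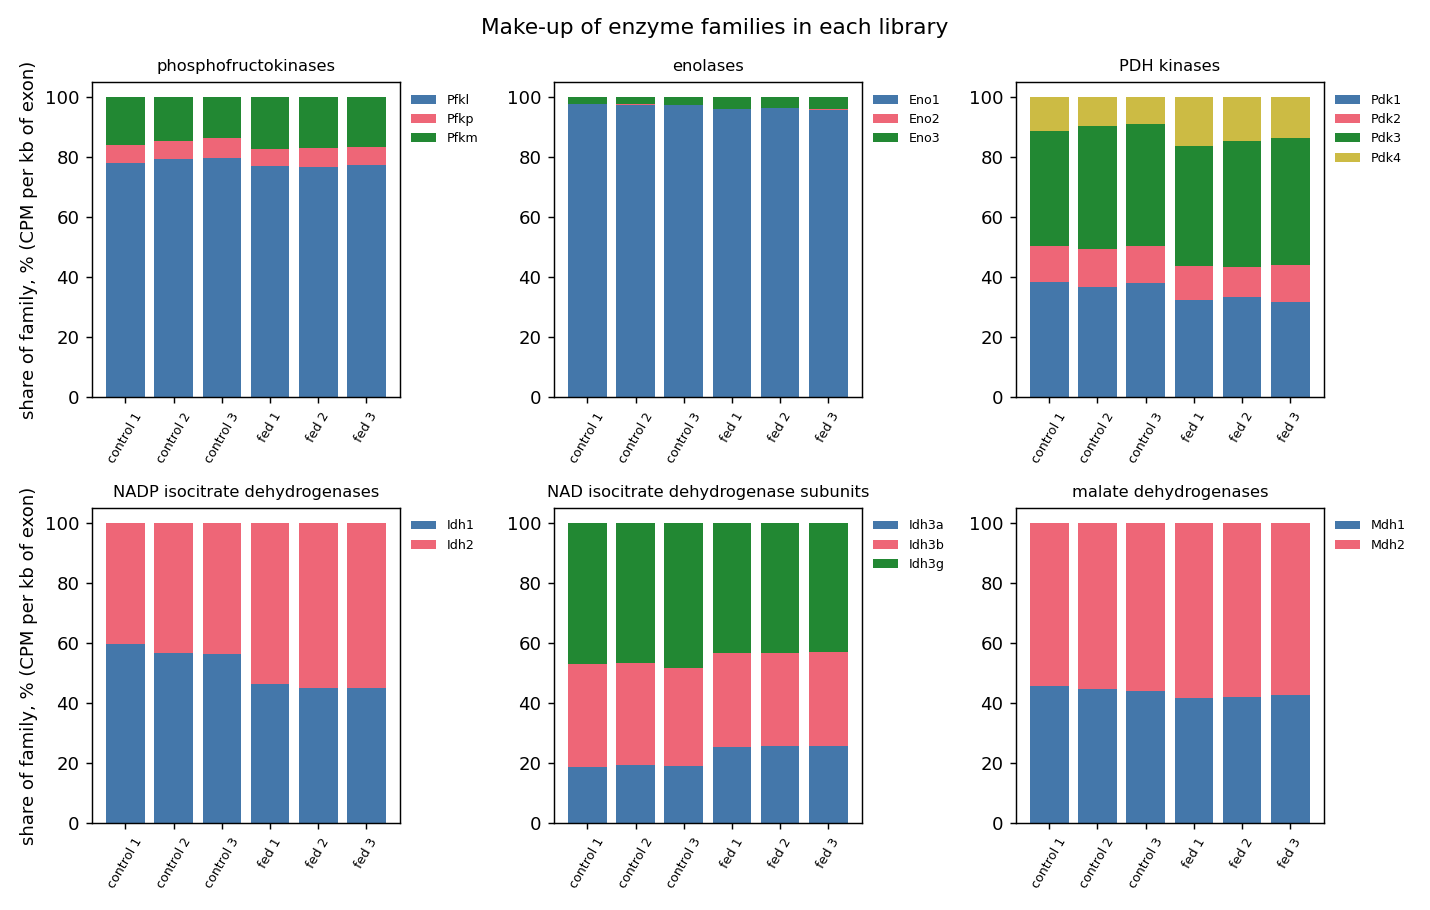
Share of each gene in the summed level of its enzyme family, for 6 families (y axis, percent of CPM per kb of exon) in each of the 6 libraries (bars). Idh1 takes over 56% of the NADP-dependent isocitrate dehydrogenases in each control library and under 47% in each fed library, and the share of Pdk4 is higher in each fed library.

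Other enzymes of these pathways, taken from lists by pathway, did not all follow the listed genes, and around glycolysis more rose than fell. Of 28 further genes around glycolysis 18 could be tested, and 9 rose and 2 fell. Their median log2 fold change was 0.16, against -0.19 for the 22 listed glycolysis genes. Over all genes tested 20.5% were called higher and 19.0% lower, against which these and the following lists are to be read. The 9 became 5 by DESeq2, and also when control replicate 2 or fed replicate 2 was left out. Eno3, the muscle enolase, rose by 0.53 on the log2 scale (adjusted p = 1.45e-05), from 14.5 ± 1.33 to 20.8 ± 1.37 CPM. Bpgm, which makes 2,3-bisphosphoglycerate, rose by 0.36 and the ADP-dependent glucokinase gene Adpgk by 0.24. Pgm2, a phosphoglucomutase that links glycogen to glycolysis, fell by 0.32 (adjusted p = 1.6e-06). The 9 that rose had control levels from 2.74 to 60.9 CPM.

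Of 7 tested genes around pyruvate 1 rose and 2 fell, a share called near the 39.5% over all genes tested. Pdk4, the kinase known to be induced by fasting, rose by 0.36 on the log2 scale (adjusted p = 0.000278), the opposite direction to Pdk1, Pdk2 and Pdk3, at 34.5, 30.9 and 28.1 CPM in control and 42.4, 39.9 and 38.1 CPM in fed libraries. The lipoate synthase gene Lias and the phosphatase gene Pdp2 fell by 0.21 and 0.33. DESeq2 and the fit without control replicate 2 called neither. Lias was also lost when fed replicate 3 was left out, and Pdp2 when control replicate 3, fed replicate 1 or fed replicate 2 was, and with no filter. Of 7 further TCA genes 3 rose and none fell. The succinate dehydrogenase subunits Sdhb and Sdhd rose by 0.16 and 0.14 and the cytosolic aconitase Aco1 by 0.11, of which only Sdhb was left without control replicate 2 or fed replicate 2. Aco1 was called by none of the fits with 1 library left out except that without fed replicate 3, nor by DESeq2. The catalytic subunit Sdha did not pass, with a log2 fold change of -0.04.

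Of 11 genes around malate, glutamate and citrate export 2 rose and 3 fell. Slc25a13, the aspartate-glutamate carrier known as citrin, rose by 0.73 on the log2 scale (adjusted p = 4.13e-05), at 4.73, 5.24 and 6.16 CPM in control and 8.18, 9.61 and 8.77 CPM in fed libraries. The mitochondrial citrate carrier Slc25a1 fell by 0.16, the alanine aminotransferase Gpt2 by 0.22 and Me3, given above, by 0.46. Of 5 tested genes that flank the pentose phosphate pathway 2 rose and 1, H6pd, fell. Prps1, which makes the nucleotide precursor PRPP from ribose 5-phosphate, rose by 0.48 (adjusted p = 1.52e-06). Prps2 rose by 0.14, which neither DESeq2 nor the fits lacking control replicate 1, control replicate 2 or fed replicate 2 called.

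Some members share exon bases or sequence with other genes, and how such reads were counted is not given in the sources used here. Annotated on the opposite strand, Kansl1l covers 17.9% of the exon bases of Rpe, Map3k15 16.1% of Pdha1, Ikbkg 13.6% of G6pdx and Pitrm1 5.58% of Pfkp. Their counts lay between 223 and 273 for Kansl1l, 16 and 27 for Map3k15, 1966 and 2488 for Ikbkg and 2422 and 2675 for Pitrm1. On the same strand, Fam129c covers 20.6% of Pgls, with 2 to 10 counts, Gm49759 15.3% of Pkm and Gm26513 10.2% of Pfkm. Gapdh has 90 annotated genes with a stretch of at least 200 bases at 95% identity or more, and Pgk1 and Ldha have 4 each. Of these the table lists 3 for Gapdh, 1 for Pgk1 and none for Ldha by symbol, and they held 0.0798% as many counts as Gapdh and 0.0104% as many as Pgk1. Reads from the other copies were not analysed here. Rpia shares such a stretch with 25 genes, of which 11 are listed. Over their whole length these 11 held 6719 counts in control and 7318 in fed libraries, against 657 and 901 for Rpia.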

How the data were processed

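Gene counts of 6 libraries were analysed, 3 control and 3 fed, grouped by the treatment label. The authors deposited raw read counts for each gene symbol. Tools named in the submitters' processing notes are STAR 2.6.0c, Subread 1.6.1 (featureCounts), Trimmomatic 0.36 and MultiQC 1.5, and the build is GRCm38. Per the labels' protocols, 200 ng of RNA entered a stranded mRNA library kit. The sources used here do not give the annotation release, the strand setting or the handling of multi-mapped reads.

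Counts were tested in R 4.3.3 with edgeR 4.0.16 (filterByExpr, TMM, robust quasi-likelihood F-test over all genes, Benjamini-Hochberg adjustment, threshold 0.05). Errors beside CPM are SDs, and those beside log2 fold changes are standard errors from the F statistic. The common coefficient of variation was 3.94%, which with these depths sets the precision. Exon lengths and coordinates are from GENCODE M21 (GRCm38). The test was checked on simulated counts that shared a common dispersion. The check required only that changes larger than any listed gene showed be found, and set no limit on false calls. Pairs of libraries of a group differed by more than sampling noise.

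Members, lists and motifs were chosen with earlier results of these data known. The naming rule takes every member, with values per library for a panel of regulated or abundant enzymes and for the called members with the smallest adjusted p (6 for glycolysis, 4 for other groups), and up to 4 called genes of each further list, of which 1 is not reported here. Outside this rule Slc16a7 and Me3 are named beside the listed genes of their families. Gene pairs, families and the Ldha promoter were chosen after their values were seen. Alternatives were RLE size factors, library totals, no filter, DESeq2 1.42.0, a replicate block and each library left out.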

Additional observations from a re-analysis of the deposited data

How the results depend on the processing

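Of the recomputed log2 fold changes of single members, 591 kept their direction and their side of the threshold, 24 lost and 7 gained a call, and 16 changed sign, none of them in a called member. The counts of called glycolysis, TCA and pyruvate genes stayed within 1.5 times under each alternative. The malate, glutamate and aspartate genes called higher were 3 by DESeq2 and 3 to 5 with 1 library left out. The pentose phosphate genes called higher were 1 by DESeq2 and 1 to 3 with 1 library left out, and those called lower were 2 with a replicate block and 1 to 2 with 1 library left out. Same-numbered control and fed libraries had correlations of deviations of 0.101, 0.0220 and 0.128, and not every library correlated best with its own number, so the numbers were not taken to pair them. Over all genes tested the replicate block called 2989 higher and 2859 lower. It also called Pfkfb3 (adjusted p = 0.007) and Pgd (0.015) lower and changed no other member's call. The fit with no filter called Pfkfb3 lower as well (0.0399). Rpe was called higher with library totals only (0.0361). With no filter, 2 thymocyte and 2 macrophage markers were called higher.

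Changes of sign were all near 0. With 1 library left out the log2 fold change ran from -0.11 to 0.0017 for Pfkm, -0.12 to 0.034 for Pfkfb4, -0.0035 to 0.077 for Slc16a3, -0.057 to 0.011 for Pcx, -0.018 to 0.0025 for Idh3b, -0.014 to 0.043 for Suclg1, -0.026 to 0.024 for Sucla2 and -0.022 to 0.12 for Pgls. With library totals only it was 0.013 for Pcx and 0.022 for Idh3b, and with the replicate block -0.0011 for Sucla2. The causes were not tested. Depth limited Eno2, Aldoc and Pfkfb4 most, whose lowest libraries held 50, 96 and 99 counts and whose standard errors were the largest of the 58.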
